A study of Mus musculus with 16 samples.

Results

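The 500 widest distal H3K4me1 domains of Veh-treated CD8+ T cells were examined. They were drawn from 34387 H3K4me1 peaks, of which 23916 lay more than 2.5 kb from any curated RefSeq transcription start site (TSS). Of these, 2673 were set aside because they overlapped an H3K4me3 peak of either treatment, which left 21243 distal peaks, and the 500 widest of these were taken. The cells were CD8+ T cells from the spleens of OT1 mice, which carry a transgenic T cell receptor in both groups. Cells were stimulated with anti-CD3 and anti-CD28 at 2 μg/ml each and 20 ng/ml IL-2 for 48 h, then expanded in IL-2 for 3 days. In the GSK group 0.5 μM GSK2879552, which inhibits the demethylase LSD1 irreversibly, was kept in the medium throughout, and the Veh group received the vehicle. The age and number of the mice behind each library are not given in the labels. Each of the 6 antibodies had 1 library per treatment, 12 peak lists in all, so replicate error is unknown for every value and no test between treatments was made.

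H3K4me1 is laid down on the nucleosomes around enhancers, and it is found both at enhancers in use and at enhancers held ready. H3K27ac is added by acetyltransferases at enhancers and promoters in use, where RNA polymerase II (Pol II) is often also found. LSD1 (Kdm1a) removes methyl groups from H3K4me1 and H3K4me2 and works in repressor complexes with CoREST and histone deacetylases. In CD8+ T cells, long stretches of enhancer marks are known around genes that define the lineage, where many transcription factors such as RUNX, ETS and AP-1 members bind.

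The labelled cell type was checked at promoters. All 10 markers of CD8 T cells, among them Cd3e, Cd8a and Cd8b1, had an H3K4me3 peak within 1 kb of a TSS in both treatments. Of 14 markers of other cell types only Cd79b, a B cell gene, had one, in both treatments, and none of the 14 had a Pol II peak. Of the 10 CD8 T cell markers 6 had a Pol II peak in Veh and 7 in GSK, with none at Cd8a in either.

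Sequences were read around LSD1 summits to show what the bound parts of the domains look like. The domains are numbered by width from 1, the widest, to 500. Shown are 200 bases of the plus strand of mm10, centred on the summit of the Veh LSD1 peak, for the domains with the most significant Veh LSD1 peaks that had no GSK LSD1 peak (domain 263 in an intron of Gcnt2, domain 436 between genes near Cd300a, domain 312 in an intron of Slco3a1). Capitals mark matches, on either strand, to any of these motifs: TGTGGT for RUNX, AGGAAGT for ETS, TGANTCA for AP-1, CTTTGAT for TCF/LEF, CAGGTG for an E-box, GGTGTGA for T-box factors, TTCNNNGAA for STAT factors, AAATCAC for GFI1, CAGCTG for another E-box, AGATAA for GATA factors and a tandem IRF motif. Matches can overlap, as in domain 436, where a RUNX and a GATA match share a base.
domain 263, LSD1 in Veh only, chr13:40924020-40924219: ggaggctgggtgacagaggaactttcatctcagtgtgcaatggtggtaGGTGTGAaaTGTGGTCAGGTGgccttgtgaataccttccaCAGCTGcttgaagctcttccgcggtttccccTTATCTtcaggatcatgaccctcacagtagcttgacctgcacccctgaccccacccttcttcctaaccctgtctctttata
domain 436, LSD1 in Veh only, chr11:114885222-114885421: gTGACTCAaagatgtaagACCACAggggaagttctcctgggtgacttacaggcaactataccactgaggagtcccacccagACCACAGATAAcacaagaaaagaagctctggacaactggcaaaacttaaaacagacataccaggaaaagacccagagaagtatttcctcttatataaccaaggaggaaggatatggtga
domain 312, LSD1 in Veh only, chr7:74497409-74497608: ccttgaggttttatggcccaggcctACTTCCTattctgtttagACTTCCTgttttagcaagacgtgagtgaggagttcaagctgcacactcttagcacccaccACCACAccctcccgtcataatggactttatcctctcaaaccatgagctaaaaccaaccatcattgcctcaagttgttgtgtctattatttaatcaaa

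The same stretch is shown for the domains with the most significant Veh LSD1 peaks that kept a GSK LSD1 peak (domain 167 in an intron of Cd200r3, domain 248 in an intron of 2900026A02Rik, domain 481 between genes near Fcho2).
domain 167, LSD1 in both, chr16:44965552-44965751: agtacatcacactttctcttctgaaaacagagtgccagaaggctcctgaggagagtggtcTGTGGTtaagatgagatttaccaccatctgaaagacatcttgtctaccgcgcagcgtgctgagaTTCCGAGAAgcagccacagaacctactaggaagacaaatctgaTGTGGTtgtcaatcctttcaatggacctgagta
domain 248, LSD1 in both, chr5:113156959-113157158: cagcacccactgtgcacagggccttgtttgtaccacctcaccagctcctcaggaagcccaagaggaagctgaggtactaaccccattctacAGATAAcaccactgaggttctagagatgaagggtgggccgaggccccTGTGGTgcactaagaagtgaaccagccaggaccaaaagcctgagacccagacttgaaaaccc
domain 481, LSD1 in both, chr13:98832493-98832692: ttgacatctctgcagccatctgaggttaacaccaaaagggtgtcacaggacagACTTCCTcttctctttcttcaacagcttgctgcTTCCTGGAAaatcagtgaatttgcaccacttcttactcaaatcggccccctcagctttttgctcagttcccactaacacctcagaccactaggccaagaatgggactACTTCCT

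The summit window of domain 263 held 5 matches to the motifs and that of domain 436 held 4, and both included a RUNX match. Domains 312, 167 and 248 also held a RUNX match, and domain 481 held ETS and STAT matches only. Over all 321 Veh LSD1 summits within the domains, windows of 300 bases held a RUNX match in 51.1% (95% interval 45.6 to 56.5%), against 52.9% (51.2 to 54.6%) of 3333 summits within the other distal peaks. ETS matches were found in 26.2% and 26.1%, and AP-1 matches in 24.0% and 24.2%. STAT matches were found in 20.6% (16.5 to 25.3%) of the summits in the domains and 13.2% (12.1 to 14.4%) of those in the other peaks, the one motif of the 11 for which the 2 intervals did not overlap. Over the whole length of the regions no such difference was seen, with STAT matches at 0.353 per kb in the domains and 0.356 per kb in the others. The remaining motifs were rarer or as frequent: 25.9% and 24.5% for CAGGTG, 15.0% and 19.3% for CAGCTG, 14.0% and 12.9% for GATA, 10.9% and 8.64% for T-box, 5.92% and 4.62% for GFI1, 3.74% and 5.43% for TCF/LEF, and 3.12% and 4.05% for IRF. Among summits in the domains, the E-box CAGCTG, 1 of the 11 motifs, was found in 19.9% (14.6 to 26.5%) of the 171 that met a GSK LSD1 peak and in 9.33% (5.64 to 15.1%) of the 150 that did not, with intervals that overlapped. In the other distal peaks it was found in 19.5% of 1328 such summits and 19.2% of 2005, so no such difference was seen there. A match is a string of letters and not a measured binding site.

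Over their whole length the domains were close to narrower distal peaks in base composition. Their median GC content was 48.4%, against 48.1% in the other 20743 distal peaks, and their median share of annotated repeats was 19.9%, against 19.1% in the next 500 regions by width. The observed to expected ratio of CpG was 0.188 in the domains and 0.190 in the others, so both were depleted of CpG. RUNX matches came at 1.18 per kb in the domains and 1.20 per kb in the others, and AP-1 matches at 0.430 and 0.442 per kb. ETS matches were rarer in the domains, at 0.445 and 0.540 per kb, as were IRF (0.131 and 0.169) and TCF/LEF matches (0.139 and 0.161). Slightly more frequent in the domains were CAGGTG (0.934 and 0.923), CAGCTG (0.693 and 0.658) and GATA matches (0.525 and 0.510). In the central 500 bases, which compares equal lengths, an ETS match was present in 16.0% (13.0 to 19.5%) of the domains and 27.4% (26.8 to 28.0%) of the others, with 22.0% (18.6 to 25.8%) in the next 500 by width. A RUNX match was present there in 43.2% (38.9 to 47.6%) and 46.8% (46.1 to 47.4%).

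Width chose the domains, so width and the Veh H3K4me1 values are given as a description. The domains ranged from 2614 to 5403 bp with a median of 2936 bp and together covered 1.54 Mb. The other distal peaks had a median width of 822 bp. Domain 500 was 2614 bp wide, 2 peaks of the same width fell outside by the order of chromosomes, and the next was 2613 bp wide. The fold enrichment of Veh H3K4me1 in the domains had a median of 2.86 with quartiles of 2.57 and 3.17, lower than the median of 4.03 in the others, while their median −log10 p was 9.83, higher than 8.07 in the others.

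The widest domain, of 5403 bp, lay between genes on chr8:120697359-120702761, 29039 bp from the TSS of Cox4i1, which encodes a subunit of cytochrome c oxidase. It held LSD1 peaks in both treatments, a Veh H3K27ac peak and no GSK H3K27ac peak. Domain 4, of 4738 bp at chr4:48072512-48077249, lay in an intron of Nr4a3, a nuclear receptor induced by T cell receptor signals. Its Veh LSD1, H3K4me2 and H3K27ac peaks had −log10 p values, the significance that MACS2 gives a peak over input, of 7.15, 7.14 and 8.35, and none of these lists had a GSK peak there. Domain 10, of 4317 bp at chr2:168488976-168493292, lay in an intron of Nfatc2, the NFAT factor that calcineurin activates, and held an LSD1 peak in both treatments, with a −log10 p of 15.2 in Veh and 7.17 in GSK, and no H3K27ac peak. The other members of the 10 widest had 1700021F07Rik, Gm13031 (the centre of the domain lies in an exon of Padi2), Rnf130, Kbtbd11, St3gal4, Parp8 and Mir7056 (the centre lies in Ptpn5) as the gene with the nearest TSS.

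The other lists were then read over the domains to ask what else they carried. LSD1 was found in most of them: 297 of the 500 (59.4%, 55.0 to 63.6%) overlapped a Veh LSD1 peak by at least 1 bp, where 19.5% of all distal peaks did. A Veh H3K4me2 peak was found in 165 (33.0%, 29.0 to 37.2%), with 10.6% over all distal peaks. A Veh H3K27ac peak was found in 157 (31.4%, 27.5 to 35.6%), with 3.99% over all distal peaks. A Veh Pol II peak was found in 43 (8.60%, 6.45 to 11.4%), with 1.64% over all distal peaks. H3K4me3 was absent, as the rule required. Intervals are Wilson 95% intervals and cover counting error only. LSD1 and Pol II peaks were listed down to a lower significance than the histone marks, so the levels of these shares are not comparable between them.

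A wide region meets more peaks than a narrow one, so overlapping peaks were also counted per length of region. A peak that reaches over an edge is counted too, which raises the count per length more in narrow regions. Counted per length, Veh LSD1 peaks came at 219 per Mb in the domains and 200 per Mb in the other distal peaks, and H3K4me2 peaks at 108 per Mb in each. H3K27ac peaks came at 103 per Mb in the domains and 35.6 per Mb in the others, and Pol II peaks at 28.6 and 15.8 per Mb. H3K27ac was thus the list with the largest ratio between the domains and the others among these 4 Veh lists. By summits, which count a peak only where its top falls inside, Veh LSD1 came at 209 per Mb in the domains and 171 per Mb in the others. By bases covered, Veh H3K4me2 took up 6.77% of the domains and 4.99% of the others, and Veh H3K27ac 6.67% and 1.41%. Veh LSD1 covered 11.3% and 8.13%, and Veh Pol II 0.704% and 0.392%.

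**Figure D1:**
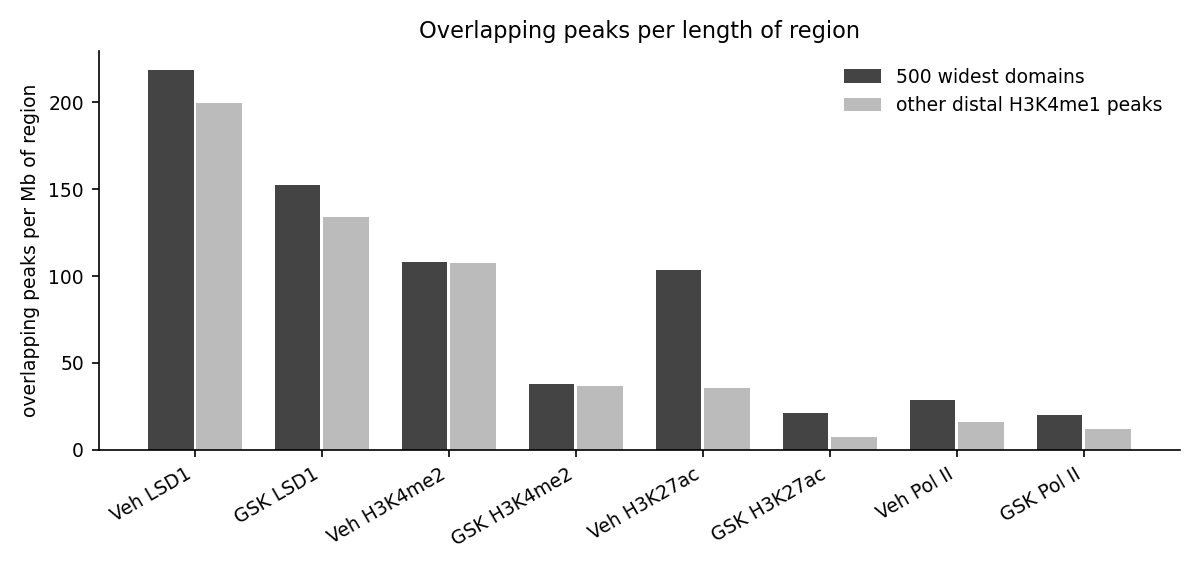
Peaks of each list that overlap the regions, per Mb of region (vertical axis), for the 500 widest domains (dark bars) and the other 20743 distal H3K4me1 peaks (light bars); each list is 1 library, so there is no error bar. Veh H3K27ac came at 103 per Mb in the domains and 35.6 per Mb in the others, while Veh H3K4me2 came at 108 per Mb in each. Peaks that reach over an edge are counted, which raises the narrower others more.

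The central 1 kb of each region was compared next. Veh H3K27ac was present there in 24.4% (20.8 to 28.4%) of the domains and in 13.4% (10.7 to 16.7%) of the next 500 regions by width, where 4.1% of all distal peaks had it. Veh LSD1 was present in 37.2% (33.1 to 41.5%) of the domain centres and 42.2% (37.9 to 46.6%) of the next 500, where 19.6% of all did. Veh H3K4me2 was present in 21.2% of the domain centres and 23.6% of the next 500, where 10.2% of all did, and Veh Pol II in 5.40% and 6.40%, where 1.93% of all did. In Veh, H3K27ac kept rising up to the widest regions, whereas LSD1 and H3K4me2 levelled off, with overlapping intervals over the 2000 widest. In GSK the domain centres held LSD1 in 26.0%, where 12.9% of all did, H3K4me2 in 8.40%, where 3.56% did, H3K27ac in 4.60%, where 0.772% did, and Pol II in 3.20%, where 1.41% did. GSK H3K4me1 covered at least part of 94.2% of the domain centres, where it did so in 87.3% of all.

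**Figure D2:**
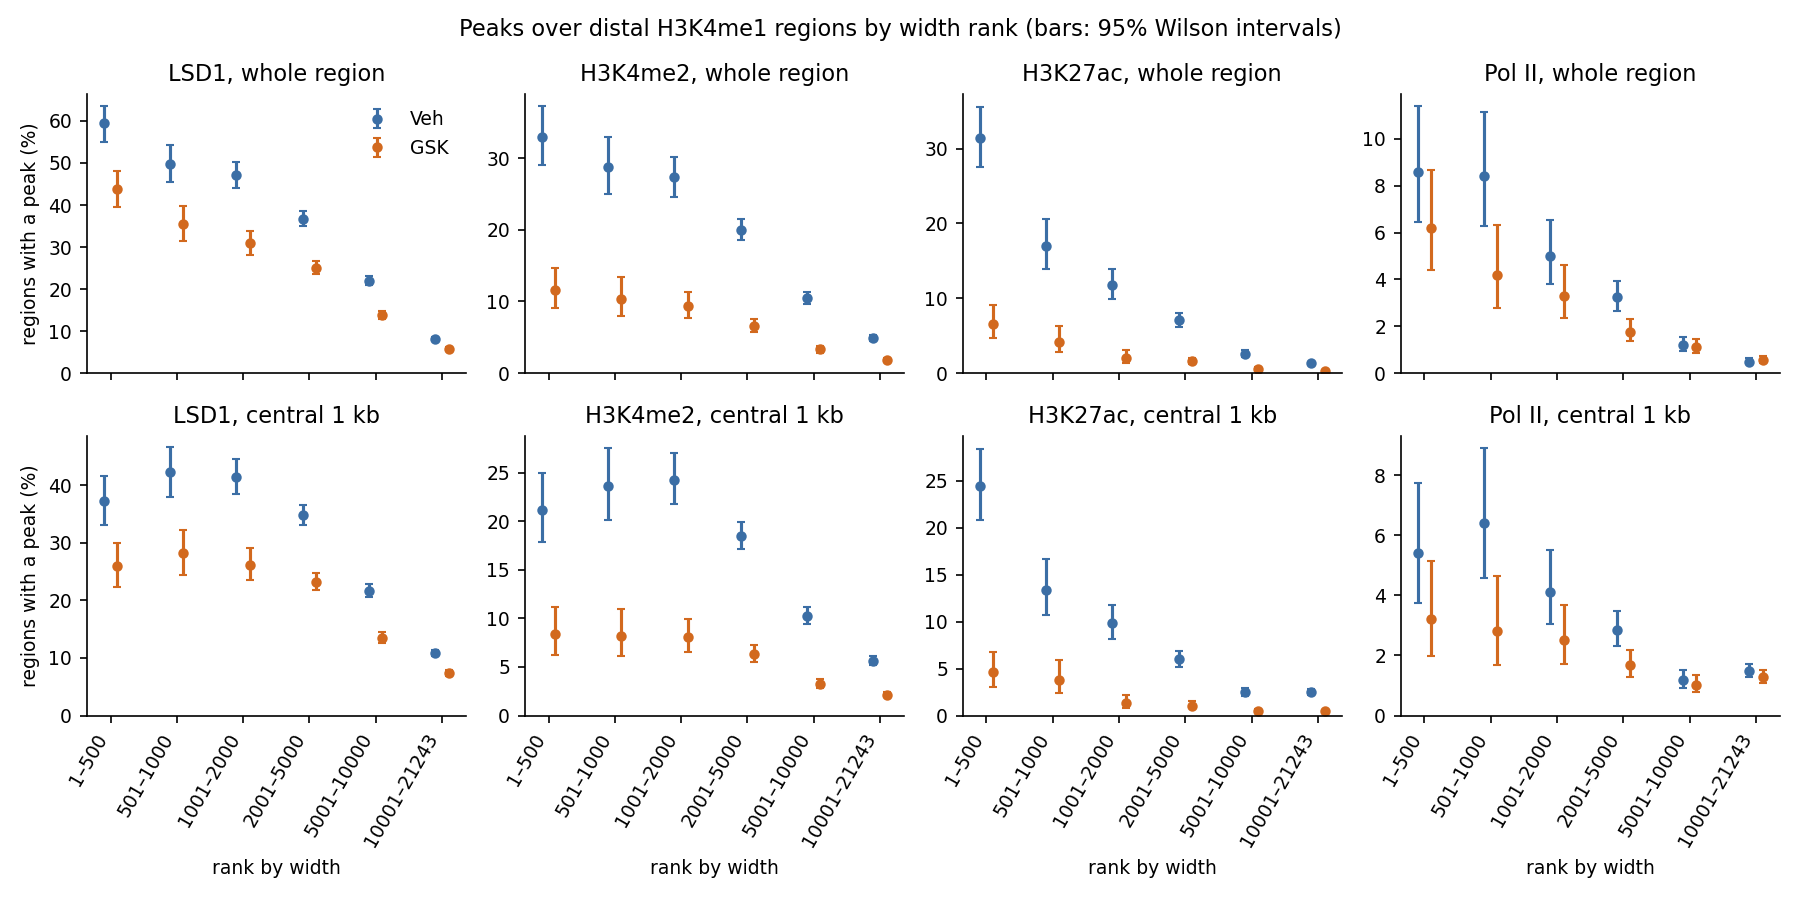
Share of distal H3K4me1 regions with a peak (vertical axes, percent) by rank of width (horizontal axes, widest at left), for the whole region (top) and its central 1 kb (bottom), in Veh (blue) and GSK (orange); bars are 95% Wilson intervals. In the central 1 kb, Veh H3K27ac falls from 24.4% in the 500 widest to 13.4% in the next 500, while Veh LSD1 is 37.2% and 42.2%. The central window reaches past regions narrower than 1 kb.

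The marks met in part of the domains. In Veh, 110 domains held none of the 4 lists, 116 held LSD1 alone and 61 held LSD1 with H3K4me2. LSD1 and H3K27ac met without the other lists in 56, LSD1, H3K4me2 and H3K27ac in 34, and all 4 lists in 10. Of the other distal peaks, which are narrower, 73.4% held none of the 4 lists, 13.6% LSD1 alone and 3.09% LSD1 with H3K4me2, against 22.0%, 23.2% and 12.2% of the domains. LSD1 was present in 73.2% (65.8 to 79.6%) of the 157 domains with Veh H3K27ac and in 53.1% (47.8 to 58.3%) of the 343 without. Pol II was present in 19.7% (14.3 to 26.7%) and 3.50% (2.01 to 6.01%) of the same groups. H3K4me2 was present in 36.9% and 31.2%, with intervals that overlapped. Domains with H3K27ac thus carried LSD1 and Pol II more often than domains without it. This was not particular to the domains. H3K27ac was also found in 8.08% of the other distal peaks with Veh LSD1 and in 2.25% of those without. Pol II went with H3K27ac there too. Among the other peaks without LSD1 or H3K4me2, 23 held H3K27ac with Pol II and 259 held H3K27ac alone. Pol II alone was held by 100, and 15221 held none of the 4 lists.

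LSD1 is the target of the inhibitor, so its peaks were compared between treatments first. A GSK LSD1 peak was found in 219 domains (43.8%, 39.5 to 48.2%), where 13.1% of all distal peaks had one. LSD1 was called in both treatments in 185 domains, in Veh alone in 112, in GSK alone in 34 and in neither in 169. Of the domains with a Veh LSD1 peak, 62.3% (56.7 to 67.6%) kept a GSK peak, where 42.3% of all distal peaks did. The share was 56.6% (50.4 to 62.6%) in the next 500 regions by width and 27.8% in the narrowest group of ranks plotted. With both lists shortened to 19919 peaks, the length of the GSK list, 62.6% (56.9 to 67.9%) of the domains kept a peak. A wide region can keep a GSK peak at another place, so single peaks were also followed: of 321 Veh LSD1 peaks with a summit in a domain, 53.3% (47.8 to 58.7%) overlapped a GSK LSD1 peak, where 41% of those in all distal peaks did.

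Stronger LSD1 peaks were kept more often. The bound domains were ordered by the −log10 p of the Veh LSD1 peak and divided into 4 groups, of which 68 of 74, 56 of 74, 33 of 74 and 28 of 75 kept a GSK peak, from the strongest to the weakest. The median Veh −log10 p was 11.1 in domains with LSD1 in both treatments and 6.77 in those with LSD1 in Veh alone. At a −log10 p from 10 to 20, 78.9% (69.4 to 86.0%) of the 90 Veh peaks in the domains overlapped a GSK peak, against 58.5% (55.0 to 62.0%) of 743 in the other distal peaks. At 5 to 7 the shares were 27.4% and 27.2%. At 20 and over they were 97.0% (84.7 to 99.5%) of 33 and 86.2% (81.4 to 89.9%) of 254. Only from 10 to 20 did the intervals of the domains and the other peaks not overlap, so at other strengths a difference was not detectable at these numbers.

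**Figure D3:**
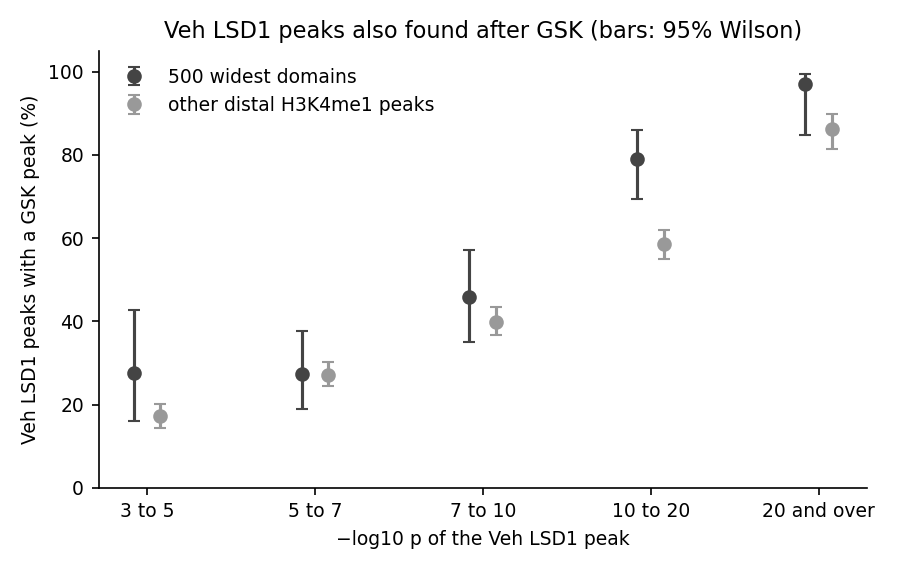
Share of Veh LSD1 peaks that overlap a GSK LSD1 peak (vertical axis, percent) by the −log10 p of the Veh peak (horizontal axis), for peaks with a summit in the 500 domains (dark) or in other distal H3K4me1 peaks (light); bars are 95% Wilson intervals. From 10 to 20 the share is 78.9% in the domains and 58.5% in the others, and from 5 to 7 it is 27.4% and 27.2%.

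The strongest LSD1 peak in a domain, with a −log10 p of 115 in Veh and 15.6 in GSK, lay in domain 167 in an intron of Cd200r3, a gene of the CD200 receptor family. Domain 248, in 2900026A02Rik, had 114 in Veh and 47.8 in GSK. Domain 481, near Fcho2, had 70.3 in Veh and 8.28 in GSK, domain 64 in an intron of Coro7, an actin regulator, had 62.2 and 12.4, and domain 40 near Gm5122 had 58.9 and 27.7. These domains were chosen for their high Veh values, so no direction is read from the lower GSK values. Of the domains with no GSK LSD1 peak, those with the strongest Veh peak lay in or near Gcnt2, which branches glycan chains, with 31.6, Cd300a, an inhibitory receptor of myeloid and lymphoid cells, with 17.3, and Slco3a1, an organic anion transporter, with 17.1. They were followed by Sema4d, a semaphorin of T cells, with 16.5, and Brsk1, a kinase, with 15.6.

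LSD1 did not sit in the middle of the domains only. Of the 321 Veh summits, 191 (59.5%) lay in the central 50% of the domain, against 75.8% of summits in the other distal peaks, and the median distance of a summit to the nearer edge was 873 bp and 481 bp. Most LSD1-bound domains held 1 Veh peak, and 39 held 2. In GSK, 60.4% of 227 summits lay in the central 50%, and 15 domains held 2 peaks.

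**Figure D4:**
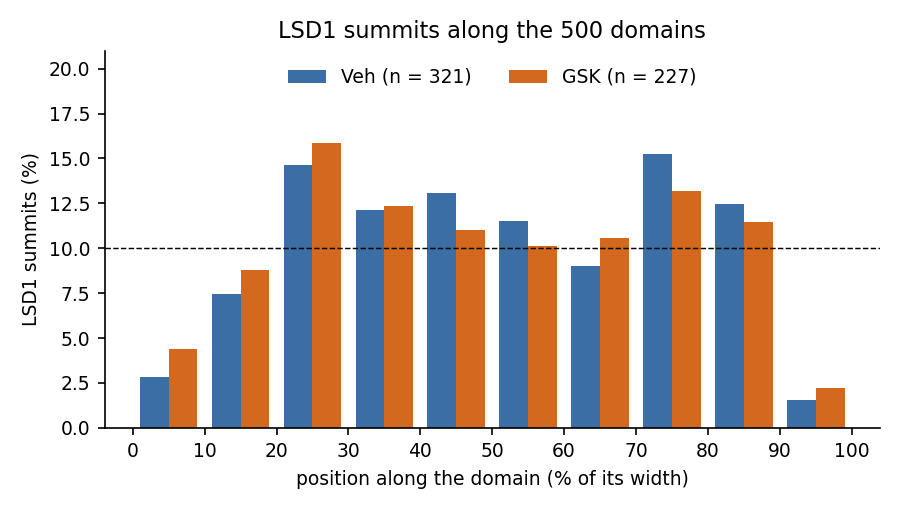
Position of LSD1 summits along the 500 domains (horizontal axis, percent of the domain's width) as a share of all summits (vertical axis, percent) in Veh (blue, 321 summits) and GSK (orange, 227 summits); the dashed line marks an even spread. Summits are spread over the inner part of the domain, with 59.5% of Veh and 60.4% of GSK summits in the central 50%. The outermost steps at the 2 ends lie below the line, with 2.80% and 1.56% of Veh summits and 4.41% and 2.20% of GSK summits.

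H3K4me1, the substrate of LSD1 on which the domains were chosen, was compared as a description. All domains but 1 overlapped a GSK H3K4me1 peak (99.8%), as did 87.5% of all distal peaks. GSK H3K4me1 covered a median of 95.3% of a domain, with quartiles of 67.7% and 99.9%. It covered 292 domains by 90% or more, 120 of them fully, and 49 by less than 50%. A single GSK peak was found in 425 domains and several in 74. The widest GSK peak was narrower than the domain in 288, which is a direction that a choice on Veh width favours. In the other direction, the 500 widest GSK domains, chosen by the same rule, were covered by Veh H3K4me1 to a median of 78.5%, and 249 of them overlapped a Veh domain. The GSK H3K4me1 list held 40272 peaks and the Veh list 34387, and the study states more read pairs for the GSK library. Whether peaks were called on all of these pairs or on reads picked to equal numbers is not clear.

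**Figure D5:**
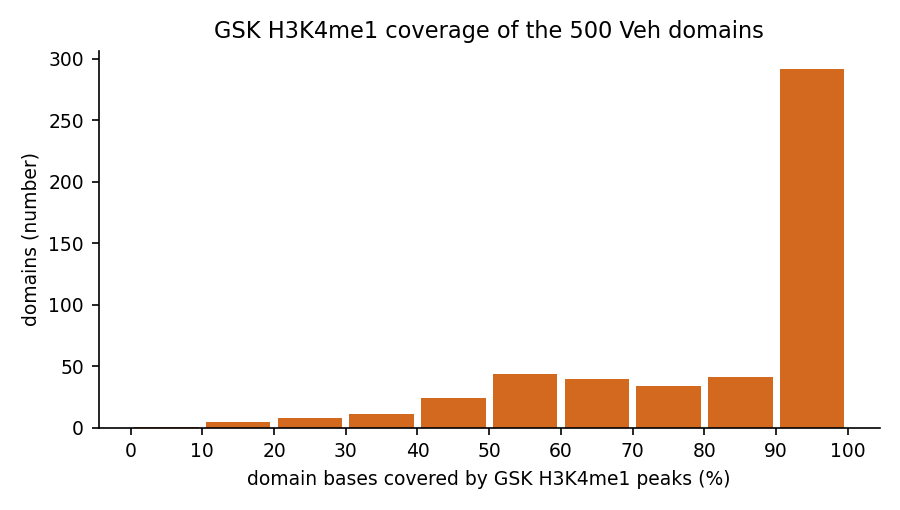
Number of the 500 Veh domains (vertical axis) by the share of their bases covered by GSK H3K4me1 peaks (horizontal axis, percent, in steps of 10). In all, 292 domains were covered by 90% or more and 49 by less than 50%.

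The domain with no GSK H3K4me1 peak was domain 157, of 3143 bp in an intron of Gsap (chr5:21246638-21249780), which still held an LSD1 peak in both treatments, with a −log10 p of 15.3 in Veh and 5.51 in GSK. The next lowest were domain 284 in an intron of Shc4, covered by 11.2%, domain 60 near Capn8 by 11.6%, domain 459 near Thy1, a surface protein of T cells, by 11.9%, and domain 481 near Fcho2 by 14.7%. These 5 did not share an LSD1 state, since LSD1 was called in both treatments in 3 of them, in Veh alone near Thy1 and in neither in Shc4. Coverage differed little with LSD1 over all domains: its median was 96.8% where LSD1 was called in both treatments, 95.3% in Veh alone, 95.2% in GSK alone and 93.9% in neither.

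H3K4me2 and H3K27ac peaks were called in fewer domains in GSK. H3K4me2 was called in 58 domains in GSK (11.6%, 9.08 to 14.7%), where 3.64% of all distal peaks had it, with 43 domains in both lists, 122 in Veh alone and 15 in GSK alone. H3K27ac was called in 33 domains in GSK (6.60%, 4.74 to 9.12%), where 0.838% of all distal peaks had it, and all 33 also had a Veh peak. Of the domains with a Veh peak, 26.1% (20.0 to 33.2%) kept H3K4me2, and 33 of 157 kept H3K27ac (15.4 to 28.0%), where 23.5% and 19.1% of all distal peaks did, so the domains kept these marks at shares near those of distal peaks in general.

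The lists behind these counts differed in length, with 7410 Veh and 2751 GSK H3K27ac peaks and 15219 Veh and 9437 GSK H3K4me2 peaks, and the study states fewer read pairs for the GSK library of both marks. The study also describes random picking of reads to equal numbers. It is not clear whether peaks were called on those equalised reads. With both H3K27ac lists shortened to their 2751 most significant peaks, 28 domains (5.60%, 3.90 to 7.97%) had a Veh peak and 33 (6.60%) a GSK peak, where 0.97% and 0.838% of all distal peaks did. With both H3K4me2 lists shortened to 9437, 70 domains (14.0%, 11.2 to 17.3%) had a Veh peak and 58 (11.6%) a GSK peak, where 4.51% and 3.64% of all distal peaks did. At equal list length the intervals of the treatments overlapped for both marks. Loss of the marks and shorter lists cannot be told apart from these counts.

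The domains with the most significant Veh H3K27ac peaks were domain 225 near Gm4668 with a −log10 p of 17.9, domain 247 in an intron of Sema4d with 15.0, domain 169 near Aebp2 with 14.7, domain 173 in an intron of Jakmip1 with 14.7, and domain 7 near St3gal4, a sialyltransferase, with 14.3. In GSK the values were 7.76, none, 9.43, 11.1 and 7.77. Of these 5 only the domain in Sema4d had no GSK H3K27ac peak, and it and the domain near Aebp2 had no GSK LSD1 peak. The LSD1 peak in Sema4d reached into the domain with its summit outside it. Among the most significant GSK H3K27ac peaks were those of domain 23 near Gm7334 (12.5 in Veh and 12.4 in GSK), domain 2 near 1700021F07Rik (8.85 and 12.2), domain 173 in Jakmip1 and domain 166 near Chsy1 (13.2 and 10.4). LSD1 was called in both treatments in these 4. Among the 157 domains with Veh H3K27ac, 26 of the 78 with the more significant peaks kept a GSK peak, against 7 of the other 79.

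H3K27ac went with LSD1 in the domains. A Veh H3K27ac peak was present in 43.2% (36.3 to 50.4%) of domains with LSD1 in both treatments, 31.3% (23.4 to 40.3%) of those with LSD1 in Veh alone, 32.4% (19.1 to 49.2%) of those with LSD1 in GSK alone and 18.3% (13.2 to 24.9%) of those with neither. Veh H3K4me2 was present in 40.0%, 27.7%, 41.2% and 27.2% of the same groups, with intervals that overlapped. In the other distal peaks the H3K27ac shares were lower, with 11.6%, 5.63%, 3.97% and 2.15%. There too they were highest with LSD1 in both treatments and lowest with neither, while the order of the 2 middle groups differed. The other distal peaks held Veh H3K4me2 in 27.7%, 15.7%, 19.6% and 6.94%. Domains with LSD1 in both treatments were slightly wider, with a median of 2998 bp, than those with neither, with 2881 bp.

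Pol II peaks were few and seldom the same. They were called in 31 domains in GSK (6.20%, 4.40 to 8.67%), where 1.21% of all distal peaks had one. In 8 domains Pol II was called in both treatments, in 35 in Veh alone and in 23 in GSK alone, so that 18.6% (9.74 to 32.6%) of the Veh domains kept it, where 19.8% of all distal peaks did. These peaks were weak: the median −log10 p was 5.03 in Veh and 4.74 in GSK, with lowest values of 3.14 and 3.00. Pol II peaks over the other distal peaks were alike, with medians of 5.21 and 4.70.

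Seen from the genes, the domains lay where other distal peaks lie. The centre was in an intron in 259 (51.8%), in an exon in 14 and between genes in 227 (45.4%), with 50.3%, 3.97% and 45.7% in the other distal peaks. A TSS lay within 50 kb of 386 domains (77.2%, 73.3 to 80.7%), against 75.2% of the others. The domains were spread out: 426 had no other domain within 50 kb, 31 pairs did, and 4 groups held 3. These groups lay near Emsy and Lrrc32 (chr7), Castor1 and Lif (chr11), Manba (chr3), and Bbc3, Sae1 and Zc3h4 (chr7). Lrrc32 encodes a docking receptor for TGF-beta and Lif a cytokine of the IL-6 family.

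The nearest TSS of a domain belonged to 464 genes, 34 of which had more than 1 domain. Arhgap26, a GTPase activator, and Manba, a lysosomal mannosidase, had 3 each. The next 8 by summed width, with 2 each, were Mir7057, Gm14010, Herc1, Hpcal1, Lrrc32, Rgs3, 3300005D01Rik and Chsy1. Hpcal1 had H3K27ac in both of its domains in both treatments. Gm14010, Herc1, Chsy1 and Rgs3, a regulator of G protein signalling, had LSD1 in both of their domains in both treatments, and the domains of Mir7057 held no LSD1, H3K4me2 or H3K27ac. The nearest gene is a matter of distance, and no contact between a domain and a promoter was measured.

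Genes of T cell biology were taken from 7 lists of 165 genes. A domain was nearest to 21 of the 165 (12.7%, 8.48 to 18.7%), where 1.77% of all 26180 genes had one. Most T cell genes lay near some distal H3K4me1 peak, 142 of 165. Of these 142 genes 14.8% had a domain, where 5.24% of the 8857 genes nearest to any distal peak did. Counted by peak, 23 of the 685 distal peaks nearest to a T cell gene were among the 500 widest (3.36%, 2.25 to 4.99%), against 2.35% (2.16 to 2.57%) of all distal peaks, with intervals that overlapped. The 142 T cell genes thus had 685 distal peaks among them and the 8857 genes 21243, and the share of wide ones among these peaks was not detectably different.

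Among 44 T cell transcription factors, 7 had a domain: Runx1, Runx2, Runx3, Irf4, Irf8, Nr4a3 and Nfatc2. Runx3, which sets the CD8 lineage, had 2 domains 43705 and 50062 bp away. The farther of these held LSD1 with a −log10 p of 42.6 in Veh and 26.3 in GSK, and the nearer held none of the other lists. Runx1 had 2 domains in its introns, one with LSD1 of 10.6 in Veh and 16.0 in GSK and a Veh H3K4me2 peak of 9.46, the other with no peak of another list and 36.1% of its bases covered by GSK H3K4me1. The domain in an intron of Runx2 held LSD1 of 10.8 in Veh and 11.0 in GSK and a Veh H3K27ac peak of 8.94. Irf4, a factor of activated T cells, had a domain 36620 bp away with Veh H3K4me2 of 6.45 only, and Irf8 one 24520 bp away with none of the lists other than H3K4me1. No domain was nearest to Tcf7, Tox, Tbx21 or Eomes. None of the 16 memory and progenitor genes listed, which share members with the transcription factors, was nearest to a domain. Of these genes 14 were nearest to a distal peak, 79 peaks in all, which allows a share of up to 4.64% (Wilson). Among the 16, only Klf2 had a TSS within 50 kb of a domain.

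Of 23 effector and cytokine genes, 4 had a domain. The domain of Ccl5, a chemokine made by cytotoxic T cells, lay 18113 bp away and held every one of LSD1 (12.9 in Veh and 12.1 in GSK), H3K4me2 (9.70 and 7.53) and H3K27ac (10.5 and 7.24) in both treatments. The domain of Ifng lay 17276 bp away at chr10:118458322-118461563 and held H3K4me1 alone in both treatments, with 98.6% of it covered in GSK. The domain of Gzmk, a granzyme, held a Veh LSD1 peak of 5.96 and no GSK LSD1 peak. That of Il10 held LSD1 with 42.8 in Veh and 27.7 in GSK and was fully covered by GSK H3K4me1. These 4 genes thus ranged from all marks kept to H3K4me1 alone.

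Of 26 genes of the antigen receptor and of costimulation, 4 had a domain, and 8 had a TSS within 50 kb of one. The one nearest to Cd3e, a chain of the receptor complex, held no LSD1 and had H3K4me2 in both treatments (5.77 in Veh and 6.76 in GSK). The one nearest to Icos, a costimulatory receptor, lay 159050 bp away and held weak LSD1 in both (4.46 and 4.51). Those of Cd2 and Lcp2 held H3K4me1 alone. Among 12 inhibitory receptors only Entpd1, the ectonucleotidase CD39, had one, in its intron, with LSD1 of 10.7 in Veh and 6.40 in GSK and a Veh H3K27ac peak of 10.7 that had no GSK partner.

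Of 35 cytokine receptor and JAK-STAT genes, Il4ra and Il21r had a domain, and only that of Il21r held LSD1, with 5.32 in Veh and 6.12 in GSK. A TSS lay within 50 kb of a domain for 5 of the 35. Of 24 adhesion and migration genes, Itga2, Itgb1 and Cxcr4 had one. That of Itga2, an integrin subunit, held a Veh LSD1 peak of 5.53 and a Veh H3K4me2 peak of 7.12 with no GSK partner, and that of Itgb1 held H3K4me1 alone. The domain of Cxcr4, the receptor that keeps lymphocytes in bone marrow, held a Veh LSD1 peak of 5.03 and a Veh H3K27ac peak of 7.79, had neither in GSK, and had 38.1% of its bases covered by GSK H3K4me1. Of 24 markers of other blood lineages only Klrb1c, the natural killer cell receptor NK1.1, had one, with LSD1 in GSK alone at 5.57.

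The promoters of the 464 nearest genes were read last. An H3K4me3 peak lay within 1 kb of a TSS in 343 of them in Veh (73.9%, 69.7 to 77.7%), where 50% of all genes had one, and in 64.8% (63.8 to 65.9%) of the genes nearest only to other distal peaks. In GSK it was found at 74.1%, where 51.1% of all genes had one. H3K4me2 was found at 49.4% in Veh and 37.3% in GSK, where 39% and 28.2% of all genes had it, and Pol II at 39.7% and 31.3%, where 29.3% and 24.9% had it. The genes nearest only to other distal peaks had H3K4me2 at 49.9% and 36.5% and Pol II at 36.5% and 31.4%, near the values of the nearest genes of the domains. H3K27ac was found at 28.9% of these promoters in Veh, where 20.5% of all genes had it, and at 10.8% in GSK, where 8.58% of all had it, with 26.1% and 11.2% in the genes nearest only to other distal peaks. LSD1 at these promoters was called at 55.4% in Veh and 60.1% in GSK, where 36.3% and 41.6% of all genes had it, with 47.6% and 55.2% in the genes nearest only to other distal peaks. Of the promoters with a Veh peak, 91.4% (87.4 to 94.3%) kept LSD1, 99.4% kept H3K4me3, 68.5% kept Pol II and 37.3% (29.6 to 45.7%) kept H3K27ac. The genes nearest only to other distal peaks kept 89.6%, 99.4%, 75.5% and 41.0% of the same marks. The interval for LSD1 at promoters did not overlap that of the domains, of which 62.3% (56.7 to 67.6%) kept it. The units differ, since a gene counted with a peak near any of its TSSs and a domain is 1 region. The strength of the LSD1 peaks, with which the kept share rose in the domains, was not matched.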

How the data were processed

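ChIP-seq was measured in 12 libraries, and 4 inputs, which carry no peak list, were not analysed here. Per the study's methods, reads were mapped uniquely to mm10 with Bowtie2, PCR duplicates were removed with Samtools and MACS2 called peaks in each library against input at a p-value cutoff of 0.001. The study also brought libraries to equal read numbers by random picking when signals were compared. Whether this came before peak calling is not clear. The deposited lists give a fold enrichment (the ratio of ChIP to background), a −log10 p, a −log10 q and a score for every peak. They did not share 1 effective cutoff. The lowest −log10 p was 3.01 for Veh LSD1 and 3.00 for Veh Pol II, with a −log10 q down to 0.787 and 0.595. For Veh H3K4me1, H3K4me2, H3K4me3 and H3K27ac the lowest −log10 p was 5.08, 5.51, 5.23 and 5.94. The lowest −log10 q of these lists was 3.01. Read numbers are not part of the lists, so depth was not computed, and a longer list can reflect deeper sequencing.

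Python 3.11.15 (numpy 2.4.6, pandas 2.3.3, scipy 1.17.1) was used. TSSs were 31603 of curated RefSeq transcripts on GRCm38, and positions are counted from 1. Regions counted as overlapped at 1 bp or more. A location in an intron, in an exon or between genes is that of the centre of a region. Shares carry Wilson 95% intervals, which cover counting error only, and neighbouring regions are not independent. Overlap functions were tested on simulated peaks. The members and gene lists were chosen with earlier results of these data known. Named were the 10 widest domains, the 10 genes with most domains, list genes nearest to a domain, and the 5 domains at the extremes of LSD1, H3K27ac and GSK H3K4me1 coverage. Of the sequences of the 10 domains at the extremes of LSD1, 6 are printed. Some items that these rules name are not reported here.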

Additional observations from a re-analysis of the deposited data

How the results depend on the processing

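In all, 12 results were recomputed under 8 settings and 2 more chosen after seeing the data, 113 values, of which 85 stayed within the interval of the reported value (counts within 1.5 times). No paired analysis was possible because each antibody and treatment had 1 library and no result comes from a test. In the central 1 kb the shares were 37.2% (Veh LSD1), 26.0% (GSK LSD1), 94.2% (GSK H3K4me1), 21.2% (Veh H3K4me2), 8.40% (GSK H3K4me2), 24.4% (Veh H3K27ac), 4.60% (GSK H3K27ac), 5.40% (Veh Pol II) and 3.20% (GSK Pol II), LSD1 retention was 56.5% and the median covered share 100%. With the 250 widest domains Veh LSD1 was 65.6%, GSK LSD1 50.4%, GSK H3K27ac 9.20%, the covered share 93.2% and the T cell genes 12. With the 1000 widest Veh LSD1 was 54.6%, Veh H3K27ac 24.2% and the T cell genes 36. With overlapping peaks of −log10 p of at least 5, LSD1 was 52.8% in Veh and 38% in GSK, and Pol II 4.40% and 2.40%. With an overlap of 200 bp Veh Pol II was 6%. With lists of equal length Veh H3K4me2 was 14.0% and Veh H3K27ac 5.60%, because weaker Veh peaks were dropped. With GENCODE M21 TSSs the GSK H3K4me1 share was 100%, and with domains ranked in the GSK list Veh H3K27ac was 25.6%. The cause was not tested where none is named. Joining peaks within 1 kb changed nothing, since the smallest gap was 1082 bp. The overlap and list settings do not apply to the gene count, nor ranking in the GSK list to the H3K4me1 values.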

Other observations

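None of the 500 widest domains lay on the X chromosome, although 256 distal peaks did, which allows a share of up to 1.48% (Wilson 95%), against 2.35% of all distal peaks. The widest X-linked distal peak ranked 751 with 2393 bp, nearest to Akap17b. X-linked distal peaks had a median width of 659 bp and a median −log10 p of 7.23, against 843 bp and 8.13 on the autosomes. Chromosome 7 gave the highest share of its distal peaks, with 41 of 1241 (3.30%, 2.44 to 4.45%), and chromosome 14 the lowest among autosomes, with 12 of 879 (1.37%, 0.783 to 2.37%).

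A set of 34 domains held LSD1 in GSK alone. Their GSK −log10 p had a median of 6.06 and a highest value of 12.3, below the median of 7.98 in the domains with LSD1 in both treatments. In 14 of them (41.2%, 26.4 to 57.8%) a Veh H3K4me2 peak was found and in 3 (8.82%, 3.05 to 23.0%) a GSK H3K4me2 peak. The shares were 19.6% and 8.34% in the other, narrower distal peaks with LSD1 in GSK alone. Over all 500 domains they were 33.0% and 11.6%, within the intervals of the 34.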
